A study of Arabidopsis thaliana with 16 samples.

Results

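Pectin methylesterases (PMEs, also called pectinesterases) and the proteins that inhibit them were followed as a gene family through seeds of *Arabidopsis thaliana* in which the dosage of the paternal genome and the transcription factor PHERES1 (PHE1) were changed. Members were the genes of the expression table whose product or description in the TAIR10 reference annotation held 'pectinesterase', 'pectin methylesterase' or 'invertase/pectin methylesterase inhibitor', which gave 155 of 27206 genes. By the InterPro domains in the annotation, 45 members had a PME catalytic domain together with an inhibitor domain, 22 had a catalytic domain without it, 79 had an inhibitor domain only, and 9 had neither. These classes are called PMEs with an inhibitor domain, PMEs without it, inhibitors, and other members. The 9 others came in through words of their description and include *SKS6*, a multicopper oxidase-like protein of the SKU5-similar family.

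Homogalacturonan, the main pectin of the primary cell wall, is secreted in a methylesterified form. PMEs remove the methyl groups in the wall, after which the chains can be cross-linked by calcium or cut by pectin-degrading enzymes, and many PMEs carry an inhibitor-like domain in front of the catalytic one. PME inhibitors bind PMEs and block them, and the same protein superfamily holds inhibitors of invertases, the enzymes that split sucrose, so that membership alone does not tell which enzyme a protein inhibits. In seeds these genes are best known from the seed coat, where they shape mucilage, and from the endosperm, the nourishing tissue next to the embryo whose first nuclei divide without walls.

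Seeds were collected 6 days after pollination (DAP) from 3 crosses with the same mother, a Ler *pistillata* (*pi-1*) plant whose flowers form no functional stamens and are pollinated by hand. The pollen donors were Col *phe1 phe2 osd1*, Col *osd1* and Col wt, and each cross had 2 libraries. The *osd1* (*omission of second division 1*) mutation makes pollen that carries a doubled genome, so both *phe1 phe2 osd1* and *osd1* seeds have an extra paternal genome (triploid embryos), and wt seeds do not. In *phe1 phe2 osd1* pollen, *PHE1* carries a premature stop codon made by CRISPR/Cas9 and *PHE2*, its neighbouring paralog, a T-DNA insertion; the mother carries intact copies of both in all 3 crosses. PHE1 binding was measured by ChIP-seq of 2 DAP siliques (the fruits, carpel walls included) of a self-pollinated *PHE1::PHE1–GFP* Col line with an antibody against GFP, in 2 replicates. The reporter runs from the *PHE1* promoter, and *PHE1* is known as an imprinted endosperm gene expressed mainly from the paternal copy.

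Expression is given as RPKM, reads per kb of gene scaled to the mapped reads of the library, so levels of different genes can be compared per length. The spacing of low values put the depth at about 16.2 to 18.3 M reads per library. The correlation of log2 values between the replicates of a cross was 0.974 in *phe1 phe2 osd1*, 0.961 in *osd1* and 0.989 in wt. *PHE1* itself had 49.0 and 49.1 RPKM in *phe1 phe2 osd1* seeds, 200.4 and 169 RPKM in *osd1* seeds, and 2.92 and 3.10 RPKM in wt seeds. *PHE2* had 37.8 and 32.5 RPKM in *phe1 phe2 osd1* seeds, 81.8 and 90.1 RPKM in *osd1* seeds, and 3.08 and 2.98 RPKM in wt seeds. Both genes were thus above wt in *phe1 phe2 osd1* seeds. A stop codon or an insertion need not remove a transcript and the mother carries intact copies, so these levels do not check the genotype, and whether functional protein was made was not measured. The 8 endosperm markers summed to 73.0 and 94.0 RPKM in *phe1 phe2 osd1*, 111 and 75.1 RPKM in *osd1*, and 41.5 and 46.6 RPKM in wt, and the 7 embryo markers to 115 and 84.8, 62.8 and 126, and 231 and 222 RPKM in that order of crosses. The endosperm list did not move one way: in *osd1* vs. wt *AGL62*, *FWA*, *MEA* and *MINI3* rose, *ZOU*, the largest of the 8 in wt at 32.1 and 35.5 RPKM, fell, and *FIS2*, *IKU2* and *YUC10* were not called. The 5 pollen genes summed to between 0.233 and 0.884 RPKM, with *HTR10*, *DUO1* and *AGL66* at 0 in every library. *osd1* replicate 1 stood apart from its replicate in *MUM4*, a seed coat gene, and in several members, of which those that turn on it are given with and without it. In RNA from whole seeds, more cells of a type and more RNA per cell cannot be told apart, and the part of a changed endosperm share in the results that follow was not tested.

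A PHE1 site was taken as a region shared by both peak lists whose centre had the member's transcription start site (TSS) as its nearest annotated TSS and lay within 1500 bp upstream to 500 bp downstream of it. This was found for 16 of 155 members (10.3%), against 1653 of all 27206 genes in the table (6.08%). The sites fell on 13 of 79 inhibitors (16.5%), 2 of 45 PMEs with an inhibitor domain, 1 of 22 PMEs without it and none of the other 9 members. These counts are a description, and no test of the share was made. When both peaks had to overlap by at least 50% of their length 10 members were left, and with only the peaks wider than the median of their list 8.

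The sequences below are the parts of PHE1-bound regions that lie upstream of 5 inhibitor genes that rose in *osd1* seeds, and of 1 PME gene that stayed near 0. They are TAIR10 reference sequence (Col) on the strand of the gene, from RefSeq, with no transcribed base, and show the material behind the counts of CArG-boxes, the motif class bound by MADS-box factors such as PHE1. Capitals mark a CArG-box with at most 1 mismatch in the first 5 sequences, of which that of AT5G46960 holds none, and an exact CArG-box in the last. Regions not shown include that of AT4G15750 and the one of AT3G17150 centred at −264 bp. Neither holds a box with at most 1 mismatch, and both genes rose in *osd1* seeds.
AT5G46950, chr5:19060334-19060633, minus strand, starting at −512 bp from the TSS: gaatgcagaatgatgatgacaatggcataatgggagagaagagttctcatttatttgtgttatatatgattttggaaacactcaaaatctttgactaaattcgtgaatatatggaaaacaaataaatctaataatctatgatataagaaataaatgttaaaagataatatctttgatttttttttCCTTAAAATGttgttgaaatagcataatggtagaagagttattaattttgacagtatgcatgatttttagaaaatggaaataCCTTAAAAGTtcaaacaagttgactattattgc
AT5G46960, chr5:19062915-19063214, minus strand, starting at −400 bp from the TSS: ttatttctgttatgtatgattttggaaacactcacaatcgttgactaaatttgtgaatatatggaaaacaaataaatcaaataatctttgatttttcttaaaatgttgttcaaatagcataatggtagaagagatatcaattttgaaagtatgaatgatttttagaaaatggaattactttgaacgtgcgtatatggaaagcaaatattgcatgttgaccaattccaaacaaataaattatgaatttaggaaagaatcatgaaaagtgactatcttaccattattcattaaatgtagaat
AT3G17150, chr3:5847165-5847257, plus strand, starting at −93 bp from the TSS: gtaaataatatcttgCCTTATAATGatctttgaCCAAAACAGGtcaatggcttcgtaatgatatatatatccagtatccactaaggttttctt
AT3G17152, chr3:5848196-5848407, plus strand, starting at −591 bp from the TSS: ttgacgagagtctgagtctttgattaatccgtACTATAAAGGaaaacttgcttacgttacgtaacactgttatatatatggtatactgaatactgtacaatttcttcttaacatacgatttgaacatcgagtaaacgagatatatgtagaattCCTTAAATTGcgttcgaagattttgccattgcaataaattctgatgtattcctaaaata
AT1G09360, chr1:3021444-3021674, plus strand, starting at −358 bp from the TSS: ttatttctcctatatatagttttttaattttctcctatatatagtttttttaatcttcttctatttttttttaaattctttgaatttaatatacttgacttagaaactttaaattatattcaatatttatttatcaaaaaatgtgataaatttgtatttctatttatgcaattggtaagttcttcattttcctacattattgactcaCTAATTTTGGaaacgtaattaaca
VGDH1 (AT2G47030), chr2:19326697-19326746, minus strand, starting at −262 bp from the TSS: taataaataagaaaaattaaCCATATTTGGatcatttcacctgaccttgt

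The CArG-box was searched on both strands as its consensus of a C pair, 6 A or T bases and a G pair. An exact box stood in none (0) of the central 300 bp windows of the 17 member regions, in 9.64% of the central 300 bp of all 2510 shared regions, and in 3.05% of 27443 promoters (250 bp upstream to 50 bp downstream of the TSS of protein-coding genes). With at most 1 mismatch allowed, a box stood in 10 of the 17 member regions (58.8%), against 63.5% of all shared regions and 39.8% of promoters. The only exact box in any full member region was that of *VGDH1*, outside its central 300 bp. A missing match says only that these letters were not in the window.

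The regions of AT5G46950 and AT5G46960, which are neighbours on chromosome 5, resembled each other. Their 300 bp windows aligned over 227 positions, 173 of them identical (76.2%). Their coding sequences, 525 bp each, were 93.5% identical, whereas AT3G17150 and its neighbour AT3G17152 shared 70.5% and AT1G09360 and its neighbour AT1G09370 47.8%. Reads of such near copies can be placed on either gene, because each read was kept at 1 place, so the split of the level between AT5G46950 and AT5G46960 is uncertain.

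The centres of 16 of the 17 regions lay upstream of the TSS, at a median of −269.5 bp and between −995 and 37.5 bp. AT3G17150 had both a region centred at −264 bp and one centred at 37.5 bp, in its coding exon. AT4G15750 and *ATPMEPCRC* (AT3G14300) had the most distant regions, centred at −916.5 and −995 bp. The AT4G15750 region is the 266 bp overlap of a peak of replicate 1 with a 2741 bp peak of replicate 2. The centre of that 2741 bp peak lay nearest the TSS of AT4G15755, so by this rule replicate 2 alone gave AT4G15750 no site. The region of AT1G11370 was a 59 bp overlap, and the centre of its replicate 1 peak lay nearest the TSS of AT1G11380. In the genome, 76 of the 155 members stood in 29 runs of adjacent members, as did 12 of the 16 members with a site. In 4 of the runs at least 2 members had a site, 8 members in all.

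**Figure D1:**
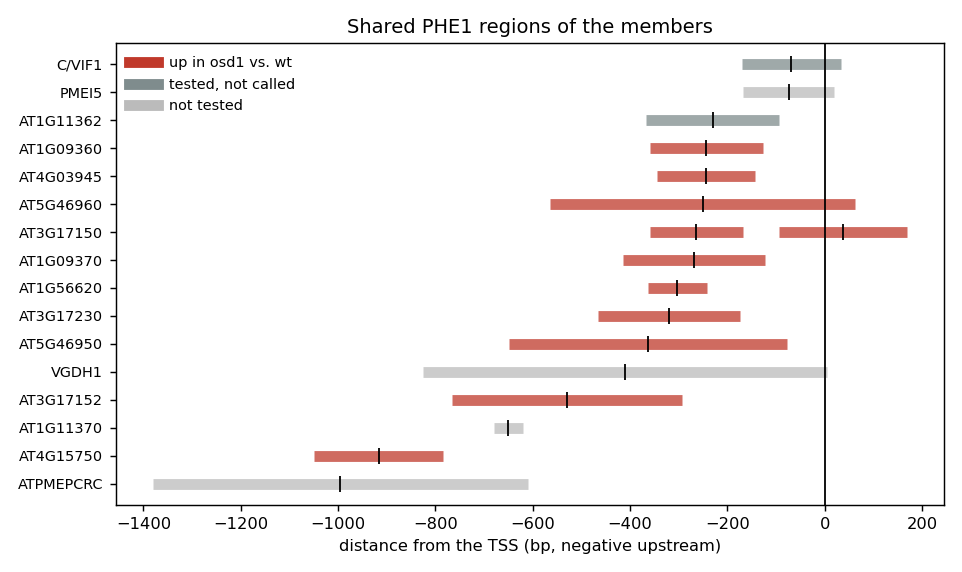
Position of the 17 shared PHE1 regions relative to the TSS of 16 members, in bp along the x axis with negative values upstream. Bars give the width of a region and black ticks its centre; red marks members called up in *osd1* vs. wt, dark grey members tested and not called, and light grey members not tested. The centres of 16 regions lie upstream, and 10 of the 16 genes are red.

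The first comparison asks how seeds with an extra paternal genome (*osd1*) differ from wt seeds. Inhibitor genes made up most of the calls: 21 of 47 tested rose and 6 fell. Genes were tested if at least 1 cross averaged 0.5 RPKM or more, and called at an adjusted p under 0.05 by limma on log2(RPKM + 0.5), with Benjamini-Hochberg adjustment over 20051 genes; folds are on that scale, which understates the change of low genes. Of the 155 members, 85 were tested, 29 were at 0 in every library and 41 had values above 0 that did not reach the filter. In all, 27 members rose (31.8% of those tested) and 14 fell (16.5%), against 12.6% up and 13.4% down over all genes tested. Among PMEs with an inhibitor domain 5 rose and 6 fell of 26, among PMEs without it none rose and 2 fell of 7, and among the other members 1 rose and none fell of 5. The filter lets in genes that are high in 1 cross only, and 6 of the 27 risers had a wt mean under 0.5 RPKM. Among the 68 members with a wt mean of at least 0.5 RPKM, 21 rose and 14 fell.

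The median log2 fold change was 0.43 over the 85 members tested and 1.07 over the 47 inhibitors, against 0.01 over all genes tested. With no filter, over the 126 members above 0 in at least 1 library, it was 0.17, with the same counts of 27 up and 14 down. The calls rested on both wt libraries, and without either one fewer genes were called over all genes tested as well. The median log2 fold change of the members was 0.42 without wt replicate 1 and 0.47 without wt replicate 2. In these fits the lone wt library is assumed to vary like the other crosses, and fewer members and fewer inhibitors were called up.

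**Figure D2:**
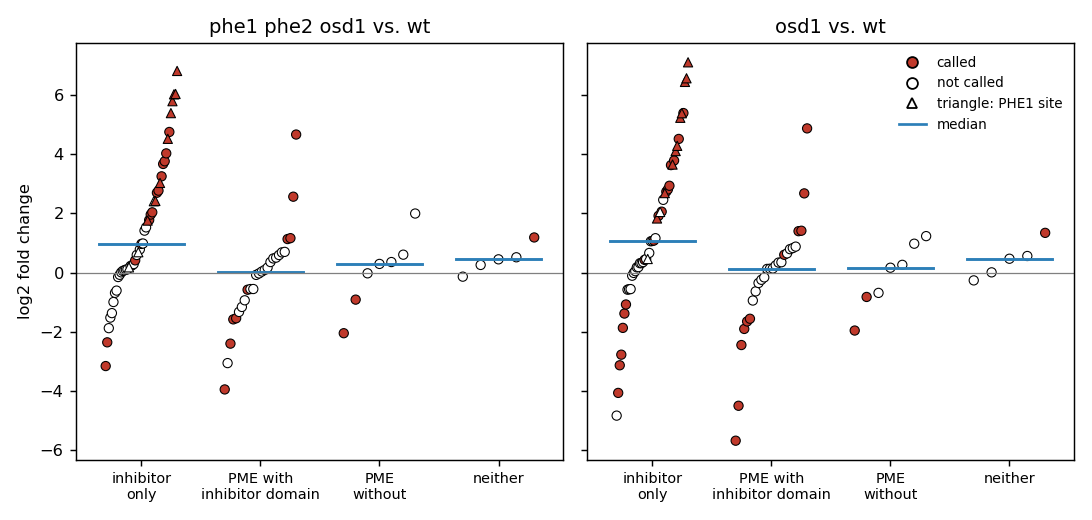
Log2 fold change of the 85 tested members in *phe1 phe2 osd1* vs. wt (left) and *osd1* vs. wt (right), by domain class along the x axis; both panels share the wt libraries. Each point is a gene, red where called at an adjusted p under 0.05, triangles have a PHE1 site and blue lines are medians. In *osd1* vs. wt the medians are 1.07 for inhibitors, 0.13 for PMEs with an inhibitor domain and 0.16 for PMEs without it.

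Summed over genes, the inhibitor transcripts stood apart from the enzyme transcripts. The 79 inhibitors summed to 11149 and 11791 RPKM in *phe1 phe2 osd1* seeds, 13579 and 12995 RPKM in *osd1* seeds, and 3122 and 3718 RPKM in wt seeds. The 67 PMEs summed to 3950.1 and 3057 RPKM in *phe1 phe2 osd1* seeds, 4163 and 3361 RPKM in *osd1* seeds, and 4127 and 4221 RPKM in wt seeds. Every library of the triploid crosses thus had a higher inhibitor sum than both wt libraries. For the PME sum the *osd1* and wt libraries overlapped, and both *phe1 phe2 osd1* libraries lay below both wt libraries. The ratio of inhibitor to PME transcripts was 2.82 and 3.86 in *phe1 phe2 osd1*, 3.26 and 3.87 in *osd1*, and 0.757 and 0.881 in wt. A few genes make these sums: AT1G56100, AT4G15750, AT5G46960 and AT5G46950 held 87.8 and 87.9% of the inhibitor sum in *phe1 phe2 osd1*, 86.9 and 90.0% in *osd1*, and 68.4 and 73.6% in wt. RNA levels say nothing of enzyme activity or of which enzyme an inhibitor meets.

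**Figure D3:**
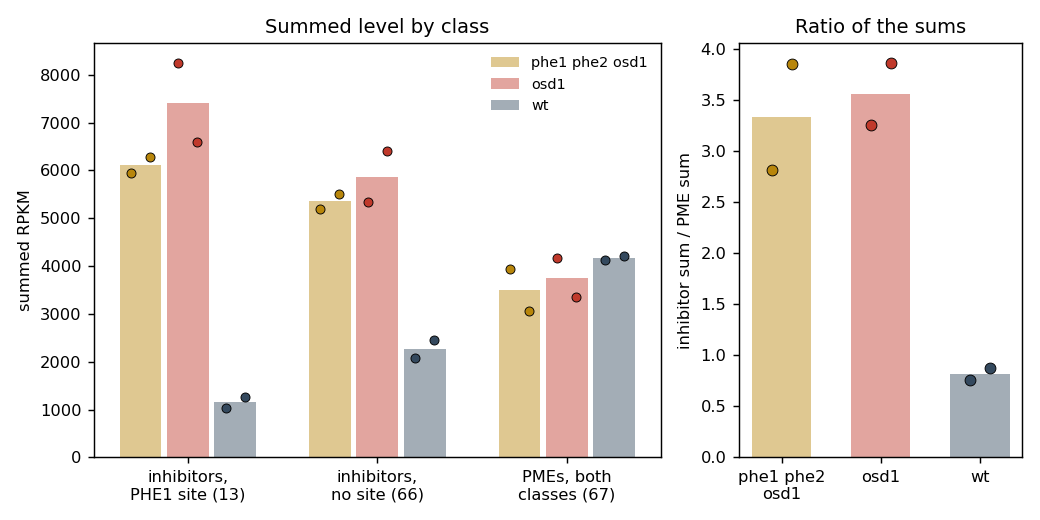
Summed RPKM of inhibitors with a PHE1 site (13 genes), inhibitors without one (66 genes) and both PME classes (67 genes) on the left, and the ratio of the inhibitor sum to the PME sum on the right. Points are the 2 libraries of a cross and bars their mean. The ratio is above 2.8 in all 4 libraries of the triploid crosses and below 0.9 in both wt libraries.

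The 13 inhibitors with a PHE1 site included the members with the largest rises. Of the 12 that were tested, 10 rose in *osd1* vs. wt and none fell, but 5 of the 12 had a wt mean under 0.5 RPKM, passed the filter only through the triploid crosses and so had almost no room to fall. Of the 7 with a wt mean of at least 0.5 RPKM, 6 rose and none fell, and of the 29 such inhibitors without a site 10 rose and 6 fell. Over the other genes with a PHE1 site, whatever their wt level, 532 of 1537 tested rose (34.6%) and 205 fell (13.3%). These are descriptions of lists, and the difference between them was not tested. Without either wt library fewer of the 12 were called, as were fewer genes over all genes tested.

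AT3G17150 had the largest rise of all members, with 141 and 184 RPKM in *phe1 phe2 osd1* seeds, 364 and 107 RPKM in *osd1* seeds, and 0.478 and 1.59 RPKM in wt seeds. The *osd1* libraries lay far apart, and all 4 triploid libraries were far above wt (log2 fold change 7.11 ± 0.61, adjusted p = 0.000836). Its neighbour AT3G17152 had 23.4 and 76.4 RPKM in *phe1 phe2 osd1* seeds, 53.6 and 10.8 RPKM in *osd1* seeds, and 0 and 0.363 RPKM in wt seeds, again with a wide spread within each triploid cross, no overlap with wt and 1 wt library at 0 (5.24 ± 0.85, adjusted p = 0.00718). In the same chromosome run, AT3G17130 (−0.11 ± 0.60, adjusted p = 0.914) and AT3G17140 (0.66 ± 0.77, adjusted p = 0.568), which have no site, stayed at or below 1.89 RPKM in every library. A short way along chromosome 3, AT3G17230 had a site and 13.2 and 68.9 RPKM in *phe1 phe2 osd1* seeds, 25.2 and 7.49 RPKM in *osd1* seeds, and 0.116 and 0.375 RPKM in wt seeds. It was above wt in all 4 triploid libraries (4.29 ± 0.85, adjusted p = 0.015), while *PMEI2* of the same run, annotated as an inhibitor of a pollen PME, had at most 0.759 RPKM.

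On chromosome 5, AT5G46960 had 1251 and 1023 RPKM in *phe1 phe2 osd1* seeds, 2112 and 1264 RPKM in *osd1* seeds, and 14.5 and 19.1 RPKM in wt seeds. Its near copy AT5G46950 had 963 and 596 RPKM in *phe1 phe2 osd1* seeds, 1597 and 888 RPKM in *osd1* seeds, and 11.2 and 15.4 RPKM in wt seeds. Both rose in *osd1* vs. wt, by 6.57 ± 0.27, adjusted p = 0.000183, for AT5G46960 and 6.45 ± 0.35, adjusted p = 0.000293, for AT5G46950, with no overlap between any triploid and any wt library. They stand inside a run of 7 adjacent members, AT5G46930 to AT5G46990, in which the 5 others had no site and reached at most 0.115 RPKM.

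AT4G15750 was the most abundant member with a site, with 3167 and 4026 RPKM in *phe1 phe2 osd1* seeds, 3572 and 3941 RPKM in *osd1* seeds, and 945 and 1179 RPKM in wt seeds. The triploid libraries lay close together and all above wt (1.83 ± 0.21, adjusted p = 0.00211). AT1G09370 had 310.2 and 268 RPKM in *phe1 phe2 osd1* seeds, 368 and 328 RPKM in *osd1* seeds, and 59.4 and 48.1 RPKM in wt seeds and rose with little spread (2.69 ± 0.15, adjusted p = 0.000303). The adjacent AT1G09360 was much lower, with 12.0 and 0.965 RPKM in *phe1 phe2 osd1* seeds, 21.6 and 8.21 RPKM in *osd1* seeds, and 0.216 and 0.399 RPKM in wt seeds. Its second *phe1 phe2 osd1* library lay near wt, and its rise in *osd1* (4.11 ± 0.98, adjusted p = 0.0282) was not called without *osd1* replicate 1 (adjusted p = 0.0862 by limma), nor without either wt library (0.188 and 0.147).

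AT1G56620 had 32.4 and 6.89 RPKM in *phe1 phe2 osd1* seeds, 51.7 and 15.0 RPKM in *osd1* seeds, and 0 and 0.419 RPKM in wt seeds. AT4G03945 had 30.3 and 17.8 RPKM in *phe1 phe2 osd1* seeds, 72.9 and 17.7 RPKM in *osd1* seeds, and 2.55 and 2.27 RPKM in wt seeds. Both were above wt in every triploid library and were called in *osd1* vs. wt (5.39 ± 0.85, adjusted p = 0.00647, and 3.65 ± 0.63, adjusted p = 0.00894). AT4G03945 was at 2.65 without *osd1* replicate 1 and at 4.66 without *osd1* replicate 2. It was at 3.72 without wt replicate 1 and 3.58 without wt replicate 2, and its call rested on both wt libraries. The site-bearing AT1G11362 had 0 and 0.797 RPKM in *phe1 phe2 osd1* seeds, 2.90 and 0.762 RPKM in *osd1* seeds, and 0 and 0 RPKM in wt seeds. It was listed at 0 in both wt libraries and in 1 *phe1 phe2 osd1* library, and was not called (adjusted p = 0.0583). *C/VIF1*, annotated as an inhibitor of cell wall and vacuolar invertases, had a region centred at −68.5 bp and 3.22 and 3.76 RPKM in *phe1 phe2 osd1* seeds, 3.50 and 5.37 RPKM in *osd1* seeds, and 3.21 and 2.85 RPKM in wt seeds. Both *osd1* libraries lay above wt by a small margin, and it was not called in *osd1* vs. wt (0.46 ± 0.25, adjusted p = 0.228). Its relative *C/VIF2*, which had no site, had 9.18 and 4.75 RPKM in *phe1 phe2 osd1* seeds, 4.42 and 4.17 RPKM in *osd1* seeds, and 6.60 and 6.60 RPKM in wt seeds, and was not called either (−0.57 ± 0.30, adjusted p = 0.215).

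**Figure D4:**
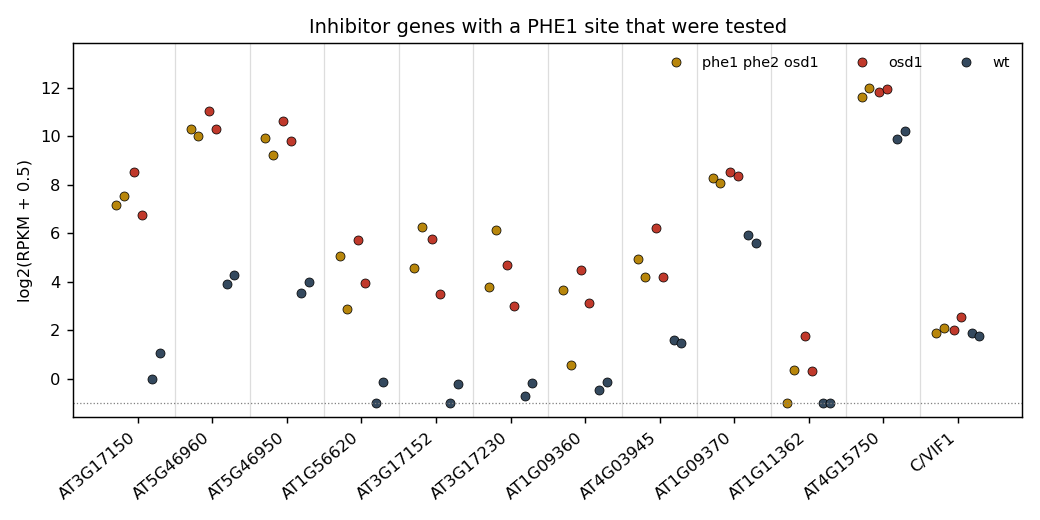
Level of the 12 tested inhibitors with a PHE1 site as log2(RPKM + 0.5) in each library, ordered by their fold change in *osd1* vs. wt. Gold points are *phe1 phe2 osd1*, red points *osd1* and dark points wt, 2 libraries each, and the dotted line marks 0 RPKM. In 10 genes both *osd1* points lie above both wt points and the gene was called; AT1G11362 and *C/VIF1* were not called.

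Binding was also found at members that were silent in these seeds. *VGDH1*, a PME gene named as a homolog of *VANGUARD1* (*VGD1*, needed for pollen tube growth), had the only exact CArG-box and between 0 and 0.109 RPKM in the 6 libraries. *ATPMEPCRC*, a PME with a site centred at −995 bp, had at most 0.160 RPKM, the PME gene AT1G11370 at most 0.379 RPKM and the inhibitor gene *PMEI5* at most 0.127 RPKM. None of these 4 reached the filter. Of the pollen-expressed members without a site, *VGD1* had at most 0.221 RPKM, *PPME1* 0.343 RPKM in a single library and *PMEI1* 0 in all 6.

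Several inhibitors without a site rose as well. AT1G56100 was the most abundant member of the family, with 4409.9 and 4718 RPKM in *phe1 phe2 osd1* seeds, 4523 and 5607 RPKM in *osd1* seeds, and 1166 and 1522 RPKM in wt seeds. Both *osd1* libraries, and both *phe1 phe2 osd1* libraries, were far above the higher wt library (1.92 ± 0.22, adjusted p = 0.00212). AT3G05741 had 74.1 and 84.3 RPKM in *phe1 phe2 osd1* seeds, 70.3 and 63.5 RPKM in *osd1* seeds, and 3.97 and 4.79 RPKM in wt seeds, with close replicates in every cross (3.79 ± 0.14, adjusted p = 0.000167). AT3G27999 had 48.9 and 42.7 RPKM in *phe1 phe2 osd1* seeds, 136 and 37.4 RPKM in *osd1* seeds, and 0.958 and 1.50 RPKM in wt seeds. AT5G50070 had 41.3 and 32.2 RPKM in *phe1 phe2 osd1* seeds, 97.6 and 39.2 RPKM in *osd1* seeds, and 2.00 and 2.46 RPKM in wt seeds. In both, *osd1* replicate 1 was the highest library and both crosses with an extra paternal genome were above wt (5.40 ± 0.56, adjusted p = 0.00151, and 4.52 ± 0.41, adjusted p = 0.00096). Close by on chromosome 5, AT5G50050, which had a peak in 1 ChIP replicate only, rose by 2.06 ± 0.36, adjusted p = 0.00974, and the gene between them, AT5G50060, had at most 0.454 RPKM. AT1G50325 (3.63 ± 0.74, adjusted p = 0.0163), AT5G20740 (2.94 ± 0.39, adjusted p = 0.00341), AT1G48010 (2.81 ± 0.34, adjusted p = 0.00246, with a peak in ChIP replicate 2 only), AT1G11593 (2.74 ± 0.40, adjusted p = 0.00478), AT4G00872 (1.08 ± 0.27, adjusted p = 0.0337) and AT3G47670 (0.43 ± 0.12, adjusted p = 0.0423) were the other inhibitors without a site that rose. Their levels in *osd1* ran from 4.22 RPKM in AT1G48010 to 132 RPKM in AT4G00872.

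Among the enzymes, 5 PMEs with an inhibitor domain rose. The largest rise was that of AT4G02300 (*PME39*), with 8.15 and 21.1 RPKM in *phe1 phe2 osd1* seeds, 26.6 and 8.69 RPKM in *osd1* seeds, and 0.0383 and 0.0354 RPKM in wt seeds. Its wt level was close to 0 and every triploid library was far above it (4.88 ± 0.61, adjusted p = 0.00284). *PME44* had 199 and 203 RPKM in *phe1 phe2 osd1* seeds, 305 and 155 RPKM in *osd1* seeds, and 25.7 and 43.7 RPKM in wt seeds and rose in both triploid crosses (2.68 ± 0.37, adjusted p = 0.00392 in *osd1* vs. wt). *PME35* (*PME61*), which is annotated as regulating the strength of supporting tissue, had 101 and 83.2 RPKM in *phe1 phe2 osd1* seeds, 133 and 92.1 RPKM in *osd1* seeds, and 38.2 and 45.3 RPKM in wt seeds (1.40 ± 0.21, adjusted p = 0.00511). AT3G49220 (1.41 ± 0.17, adjusted p = 0.00233) and AT5G09760 (0.60 ± 0.17, adjusted p = 0.0494) rose by less. None of these 5 had a PHE1 site.

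One PME gene held the largest share of the enzyme transcripts and was not called in any comparison. AT5G49180, a putative PME with an inhibitor domain, had 2886 and 2112 RPKM in *phe1 phe2 osd1* seeds, 3113 and 2421 RPKM in *osd1* seeds, and 2062 and 2619 RPKM in wt seeds. Its libraries overlapped between all crosses (0.24 ± 0.25, adjusted p = 0.516 in *osd1* vs. wt), and it made up 73.1 and 69.1% of the PME sum in *phe1 phe2 osd1*, 74.8 and 72.0% in *osd1*, and 50.0 and 62.0% in wt. Also not called were *PME1* (AT1G53840, 0.13 ± 0.14, adjusted p = 0.531) and *PME31* (AT3G29090, 0.16 ± 0.23, adjusted p = 0.642), which is annotated as an atypical, salt-independent PME.

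Lower levels in *osd1* seeds were found for 14 members. *ATPMEPCRD* (AT2G43050), a PME with an inhibitor domain, had 71.2 and 97.7 RPKM in *phe1 phe2 osd1* seeds, 2.46 and 62.0 RPKM in *osd1* seeds, and 887 and 555 RPKM in wt seeds. All triploid libraries were below wt, but *osd1* replicate 1 lay far below its replicate (−5.69 ± 1.28, adjusted p = 0.0231). *PME3*, a PME known as a target of a nematode effector, had 2.47 and 2.41 RPKM in *phe1 phe2 osd1* seeds, 1.32 and 1.71 RPKM in *osd1* seeds, and 43.3 and 46.9 RPKM in wt seeds. Here the replicates lay close together and fell together (−4.51 ± 0.18, adjusted p = 0.000183). *PME5*, a PME without an inhibitor domain that is known from the shoot meristem, had 0.770 and 1.11 RPKM in *phe1 phe2 osd1* seeds, 0.914 and 1.14 RPKM in *osd1* seeds, and 5.49 and 5.38 RPKM in wt seeds and fell as evenly (−1.96 ± 0.24, adjusted p = 0.0026). AT1G23200, a PME with an inhibitor domain, had 318 and 228 RPKM in *phe1 phe2 osd1* seeds, 128 and 287 RPKM in *osd1* seeds, and 729 and 501 RPKM in wt seeds (−1.66 ± 0.40, adjusted p = 0.0298).

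The inhibitors AT2G01610 and AT3G12880 fell too. AT2G01610 had 5.77 and 6.54 RPKM in *phe1 phe2 osd1* seeds, 0.503 and 3.60 RPKM in *osd1* seeds, and 35.8 and 31.6 RPKM in wt seeds. AT3G12880 had 63.8 and 63.3 RPKM in *phe1 phe2 osd1* seeds, 8.50 and 48.2 RPKM in *osd1* seeds, and 183 and 185 RPKM in wt seeds. In both, *osd1* replicate 1 was the lowest of the 6 libraries (−4.07 ± 0.60, adjusted p = 0.00513, and −3.14 ± 0.70, adjusted p = 0.0226). Without *osd1* replicate 1 and without *osd1* replicate 2, the log2 fold changes were −3.06 and −5.09 for AT2G01610, −1.92 and −4.36 for AT3G12880, and −3.49 and −7.89 for *ATPMEPCRD*, and all 6 were called. Without either wt library none of the 3 genes was called (adjusted p between 0.0609 and 0.174 by limma). The inhibitor gene AT3G62820 had 3.23 and 1.67 RPKM in *phe1 phe2 osd1* seeds, 4.15 and 2.47 RPKM in *osd1* seeds, and 30.6 and 20.4 RPKM in wt seeds, with triploid libraries that overlapped each other and stood below wt (−2.78 ± 0.37, adjusted p = 0.00346). The enzyme genes AT2G26450 and AT1G02810 fell by less, with log2 fold changes of −2.45 ± 0.33, adjusted p = 0.00375, and −1.91 ± 0.39, adjusted p = 0.0171. AT1G55770, an inhibitor gene that also fell (adjusted p = 0.0394 by limma), was listed at 0 in both *osd1* libraries and had 0.581 and 0.536 RPKM in wt. The 4 remaining falls were those of *PME12* (AT2G26440, −1.56 ± 0.30, adjusted p = 0.013), the PME gene AT5G19730 (−0.83 ± 0.18, adjusted p = 0.0203), and the inhibitor genes AT1G70720 (−1.87 ± 0.42, adjusted p = 0.0226) and AT3G36659 (−1.39 ± 0.36, adjusted p = 0.0354).

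*PMEI6*, an inhibitor that acts on mucilage in the seed coat, had the widest gap between the *osd1* libraries among these genes. It had 80.8 and 205 RPKM in *phe1 phe2 osd1* seeds, 0.697 and 230.5 RPKM in *osd1* seeds, and 467 and 486 RPKM in wt seeds. All triploid libraries were below wt, but *osd1* replicate 1 was close to 0, and the fall was not called (−4.84 ± 2.20, adjusted p = 0.16). Without *osd1* replicate 1 the value was −1.05 (adjusted p = 0.187 by limma) and without *osd1* replicate 2 it was −8.64 (adjusted p = 0.000321). Of the seed coat markers, *MUM4*, which makes a sugar precursor of mucilage, had 173 and 319 RPKM in *phe1 phe2 osd1*, 57.0 and 341 RPKM in *osd1*, and 701 and 581 RPKM in wt and was not called (−2.19 on the log2 scale, adjusted p = 0.0913). The list did not move one way: in *osd1* vs. wt *BAN*, *TT12*, *TT16* and *TTG2* rose, *MUM2* fell, and *MUM4*, *TT10* and *GL2* were not called. The 8 seed coat markers together summed to 772 and 1030.5 RPKM in *phe1 phe2 osd1*, 667 and 1151 RPKM in *osd1*, and 1368 and 1296 RPKM in wt, a sum to which *MUM4* contributed most in wt. The part of seed coat RNA in these falls was not tested.

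**Figure D5:**
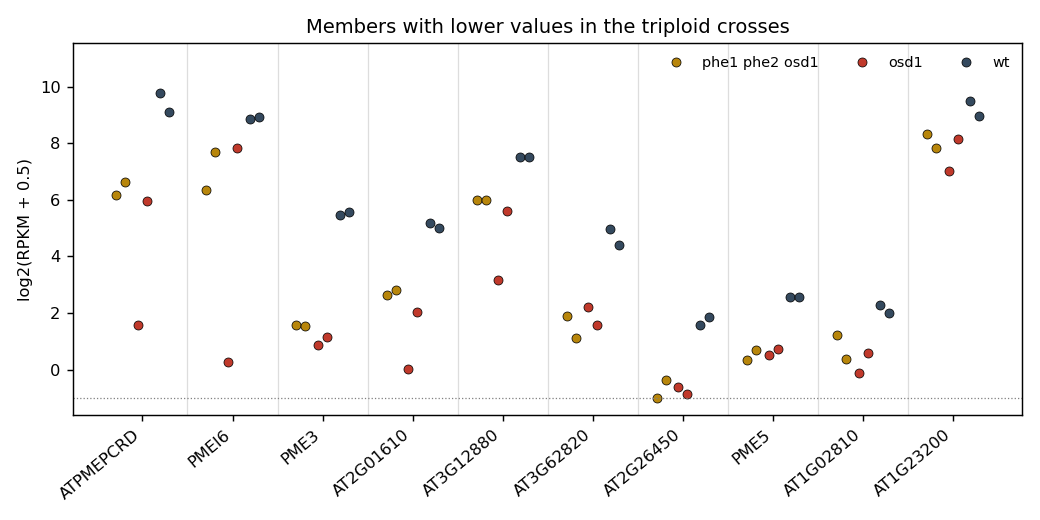
Level of 9 members that fell in *osd1* vs. wt, and of *PMEI6*, which was not called, as log2(RPKM + 0.5) in each library, with gold, red and dark points for *phe1 phe2 osd1*, *osd1* and wt and the dotted line at 0 RPKM. All triploid points lie below both wt points. In *ATPMEPCRD*, *PMEI6*, AT2G01610 and AT3G12880 the first *osd1* library (left red point) is the lowest, while *PME3* and *PME5* have close replicates.

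The second comparison asks what is left of these differences when the extra paternal genome carries the *phe1* and *phe2* mutations. In *phe1 phe2 osd1* vs. wt, 26 members rose and 9 fell of 85, against 12.1% up and 12.5% down over all genes tested. Of the 47 inhibitors, 21 rose and 2 fell, and of the 12 tested members with a site, 9 rose and none fell. Of the 7 of these with a wt mean of at least 0.5 RPKM, 6 rose, while the 5 others had almost no room to fall. This comparison shares its wt libraries with the first, so the lists are not independent. Risers called in both comparisons numbered 25, of 26 in *phe1 phe2 osd1* and 27 in *osd1*, and members that fell in both 7, of 9 in *phe1 phe2 osd1* and 14 in *osd1*. Of the inhibitors with a site, the log2 fold changes in *phe1 phe2 osd1* vs. wt were largest at 6.82 ± 0.61, adjusted p = 0.00116, for AT3G17150, 6.04 ± 0.27, adjusted p = 0.000245, for AT5G46960 and 6.03 ± 0.85, adjusted p = 0.00482, for AT3G17152. They were smallest for *C/VIF1* (0.18 ± 0.25, adjusted p = 0.646) and AT1G11362 (0.69 ± 0.62, adjusted p = 0.466), and only for AT1G11362 did the libraries overlap wt. AT1G09360 was the member with a site called in *osd1* but not here (2.41 ± 0.98, adjusted p = 0.128). The median log2 fold change of the members was 0.35 with all libraries, 0.34 without wt replicate 1 and 0.50 without wt replicate 2. Without either wt library fewer members were called, and fewer genes over all genes tested as well. More members fell by call when either *osd1* library was left out and fewer when either *phe1 phe2 osd1* library was. The falls over all genes tested moved the same way.

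Compared directly, *phe1 phe2 osd1* and *osd1* seeds gave no call among the 85 members. The count was also 0 over all 20051 genes (0.0% higher and 0.0% lower). *PHE1* itself, lower in both *phe1 phe2 osd1* libraries, was not called either (−1.90 ± 0.13, adjusted p = 0.0952 by limma). Of the 85 members, 2 were higher and 1 lower at an unadjusted p under 0.05 in limma, against 350 and 204 of the 20051 genes. The rank product, at an unadjusted one-sided p under 0.05, took 12 members as higher and 8 as lower. Over the 20051 genes it took 874 as higher and 836 as lower. This does not show that the crosses were alike. The median log2 fold change was −0.09 over the members tested and −0.41 over the 12 with a site, against −0.01 over the other genes with a site, with no test of that difference. Both *phe1 phe2 osd1* libraries were above both *osd1* libraries for 11 members and below for 8, that is 12.9% and 9.41% of those tested, against 12.6 and 10.1% of all genes tested.

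Of the 12 tested members with a site, AT5G46960 and AT1G09370 had both *phe1 phe2 osd1* libraries below both *osd1* libraries, and none had both above. The fold of AT5G46960 was −0.53 ± 0.27, adjusted p = 1, that of AT1G09370 −0.27 ± 0.15, adjusted p = 1. For the 10 other tested members with a site the libraries of these crosses overlapped. Of the 4 that were not tested, all near 0, AT1G11370 had both *phe1 phe2 osd1* libraries above both *osd1* libraries, and *VGDH1* and *ATPMEPCRC* had both below. Among members without a site, AT3G27980 (−0.60 ± 0.33, adjusted p = 1), *PMEPCRF* (AT5G53370, −0.42 ± 0.15, adjusted p = 1) and AT1G10770 (−0.39 ± 0.33, adjusted p = 1) had the largest separated differences below 0. Above 0 stood *ATPMEPCRD* (2.63 ± 1.28, adjusted p = 1), AT2G01610 (1.71 ± 0.60, adjusted p = 1), AT3G12880 (1.61 ± 0.70, adjusted p = 1) and *QRT1* (1.04 ± 0.45, adjusted p = 1), a PME needed for pollen grains to separate. Without *osd1* replicate 2, *osd1* rested on its replicate 1. The log2 fold changes were then 4.83 for *ATPMEPCRD*, 2.73 for AT2G01610, 2.83 for AT3G12880 and 6.76 for *PMEI6*. Without *osd1* replicate 1 they were 0.42, 0.69, 0.39 and −0.84 in the same order.

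Other genes of pectin metabolism, grouped by words of their annotation, give the setting. In *osd1* vs. wt, 2 of 23 tested galacturonosyltransferase genes, which build homogalacturonan, rose and 2 fell. Pectate lyases had 1 up and 1 down of 15, and pectin acetylesterases 2 up and 3 down of 12. Among 37 genes annotated with polygalacturonase, the enzymes that cut the demethylesterified chains and some of their inhibitors, 9 rose and 7 fell. Among 42 subtilases, proteases of which some process PMEs, 12 rose and 6 fell. In *phe1 phe2 osd1* vs. wt the counts of up and down were 2 and 2, 1 and 1, 2 and 3, 7 and 7, and 13 and 7 in the same order, and in *phe1 phe2 osd1* vs. *osd1* none of these genes was called. The medians in *osd1* vs. wt lay between −0.13 for pectin acetylesterases and 0.38 for subtilases, against 1.07 for the inhibitors.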

How the data were processed

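RNA was taken from 6 DAP seeds of 3 crosses with 2 libraries each, every library made from the seeds of pooled siliques. The 2 libraries of a cross are biological replicates according to the study's methods. The authors mapped paired-end reads to TAIR10 with TopHat2 2.1.0, keeping 1 place per read, and deposited RPKM per gene from GFOLD; a strand setting is not given in the sources used here. The steps between low RPKM values put the depth near 16.2 to 18.3 M reads, an approximate figure, so single values carry no counting interval. For ChIP the authors aligned reads with Bowtie 1.2.2 and called peaks with MACS2 2.1.1 in each replicate against its input. The lists held 2818 and 4858 nuclear peaks, with positions only, without height or p-value.

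RPKM values were taken as log2(RPKM + 0.5), genes that averaged 0.5 RPKM or more in at least 1 cross were kept, and all 6 libraries were fitted together with limma 3.58.1 (R 4.3.3, eBayes with trend), p-values being two-sided and adjusted over 20051 genes. Errors after ± are limma's standard errors of a log2 fold change, and all adjusted p in the text are from this fit unless another is named. The rank product, used as an alternative, ranks genes over the 4 pairs of libraries and takes an unadjusted p. Shared regions overlap by at least 1 bp, and TSS are those of 37899 annotated genes. Regions and classes come from the RefSeq copy of TAIR10, whose chromosome lengths held all peaks. Classes came from InterPro entries of its descriptions, since the protein sequences that were to set them were not used here.

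The members, gene lists, tests and alternatives were chosen with earlier results of these data known. Genes were named if they were among the 12 largest rises or 8 largest falls called in *osd1* vs. wt with separated libraries, had a PHE1 site, were among the 4 most abundant of their class, had a role named in advance, were among the 4 largest separated differences in each direction between *phe1 phe2 osd1* and *osd1*, or neighboured a named gene in a run; further genes were named after their values were seen. The criteria gave 62 names, 47 of them tested, and the genes named later are not among these. The counts of calls kept over the alternatives cover these 47 only. Of the roles named in advance, *PME6* (*HMS*), *PME58*, *PMEI14*, *PMEI13* and *PMEI4* were not found in the annotation. They were matched to no gene, so a member given by its ID alone may be one of them. The fit was tested on simulated data with known changes, in *osd1* vs. wt. It called 45 of 100 changes of 1 on the log2 scale, 48 of 50 changes of 2 and 49 of 50 changes of 3. Of 19851 unchanged genes it called 12. Histone and input samples of the series were not analysed here.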

Additional observations from a re-analysis of the deposited data

How the results depend on the processing

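The median log2 fold change of the members moved to 0.17 in both *phe1 phe2 osd1* vs. wt and *osd1* vs. wt with no filter on low values. In *phe1 phe2 osd1* vs. wt the 9 falls became 16 in a fit of only the compared crosses and 14 with the rank product. Over all 20051 genes the 2511 falls became 3098 and 1813 in the same order. The 2 falls among inhibitors became 1 with a pseudocount of 0.1, 5 with only the compared crosses and 7 with the rank product. In *phe1 phe2 osd1* vs. *osd1* the rank product took 12 members as higher and 8 as lower, where limma called 0. Over all 20051 genes it took 874 as higher and 836 as lower. The median of −0.09 in this comparison turned to 0.076 without *osd1* replicate 1. Members with a PHE1 site numbered 10 with an overlap of at least 50% of both peaks and 8 with the wider peaks only, against 16.

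With 1 library left out, *osd1* vs. wt gave 10 to 29 members up and 3 to 14 down, 9 to 22 inhibitors up and 0 to 5 down, and 4 to 11 members with a site up. In *phe1 phe2 osd1* vs. wt this median was 0.29 to 0.50. *phe1 phe2 osd1* vs. *osd1* gave 0 to 4 up and medians of −0.19 to 0.076. In both comparisons with wt the lowest counts of calls came from leaving out a wt library, over all genes tested as well, and the cause was not tested. Among the named members that were tested, 609 values in *osd1* vs. wt stayed on their side of the threshold over the alternatives, 39 lost the call and 7 gained it. In *phe1 phe2 osd1* vs. wt these counts were 590, 47 and 18, in *phe1 phe2 osd1* vs. *osd1* 651, 0 and 4. No called value changed sign, but values called on neither side did so 10 times in *osd1* vs. wt, 16 times in *phe1 phe2 osd1* vs. wt and 37 times in *phe1 phe2 osd1* vs. *osd1*. One of these was *PMEI6* (AT2G47670) in *phe1 phe2 osd1* vs. *osd1*, at −0.84 without *osd1* replicate 1. Other scalings left the counts within 1.5 times.

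The labels do not say that a replicate number marks a shared day or batch, and the main fit did not pair libraries by it. Deviations of same-numbered libraries correlated at 0.17 between *phe1 phe2 osd1* and *osd1*, −0.011 between *phe1 phe2 osd1* and wt, and −0.0040 between *osd1* and wt. With a replicate block, *osd1* vs. wt gave 28 members up and 11 down, *phe1 phe2 osd1* vs. wt 24 up and 9 down, and *phe1 phe2 osd1* vs. *osd1* 0.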
